A study of Homo sapiens with 18 samples.

Results

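The 10 genes described here are ERN1, XBP1, ATF6, HSPA5, HSP90B1, SDF2L1, DNAJB9, DNAJC3, HERPUD1 and EDEM1, which encode stress sensors, transcription factors, chaperones and degradation factors of the endoplasmic reticulum (ER). They were chosen by name, as the rows whose RefSeq identifier maps to these symbols, and all 10 were found among 20802 listed targets. All 10 were also among the 10213 genes tested, which remained after a count minimum and the removal of noncoding genes. The libraries came from RKO, an established human colorectal carcinoma line, transfected once with 30 nM of an siRNA through a lipid reagent and harvested 72 h later. The 18 libraries form 6 groups of 3 replicates. siCtrl#1 and siCtrl#2 are nontargeting, siTsg101#1 and siTsg101#2 target TSG101, and siVps28#1 and siVps28#2 target VPS28. Tsg101 and Vps28 are subunits of ESCRT-I, a complex that sorts ubiquitinated membrane proteins on endosomes, and the study asked how cells respond to its loss. Every group was a bulk culture of the same line, so that more RNA per cell and more cells expressing a gene cannot be told apart.

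Unfolded proteins in the ER are sensed by the membrane proteins IRE1 (encoded by ERN1), ATF6 and PERK. Activated IRE1 splices XBP1 mRNA so that it encodes an active transcription factor, ATF6 moves to the Golgi where the proteases S1P and S2P release its active domain, and PERK phosphorylates eIF2α and favours translation of ATF4. The released factors bind ER stress elements in the promoters of chaperone genes and of genes for ER-associated degradation (ERAD), the route by which misfolded proteins are returned to the cytosol and destroyed. Induction of HSPA5, DNAJB9 and HERPUD1 mRNA is widely used as a readout of this unfolded protein response.

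The promoter windows of the 10 genes were searched for these elements. The windows run from 250 bases before to 50 bases after each transcription start and were taken from RefSeq on GRCh38.p14, which held a window for 10 of 10 genes. Motifs of the response were searched on both strands, namely ERSE (CCAAT, then any 9 bases, then CCACG), ERSE-II (ATTGG, then any 1 base, then CCACG) and UPRE (TGACGTGG). The CCAAT box and the CCACG box were also searched alone, and every ERSE or ERSE-II match therefore holds a match of each box (ATTGG is CCAAT read on the other strand). The stretches around the matches follow, on the strand of the gene, with the whole element in capitals.
XBP1: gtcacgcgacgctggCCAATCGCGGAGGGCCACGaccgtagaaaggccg
HSPA5: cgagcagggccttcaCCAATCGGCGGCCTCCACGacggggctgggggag
HSP90B1: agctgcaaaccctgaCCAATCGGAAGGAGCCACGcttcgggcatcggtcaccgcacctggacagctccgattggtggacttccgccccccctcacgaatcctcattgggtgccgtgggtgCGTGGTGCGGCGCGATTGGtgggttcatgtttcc
HERPUD1: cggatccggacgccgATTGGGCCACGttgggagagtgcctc
SDF2L1: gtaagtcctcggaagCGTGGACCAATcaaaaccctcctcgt
XBP1 (chr22:28800588-28800636, minus strand) and HSPA5 (chr9:125241376-125241424, minus strand) held 1 ERSE each. HSP90B1 (chr12:103930201-103930354, plus strand) held 2, the second of them in reverse orientation. HERPUD1 (chr16:56932010-56932050, plus strand) and SDF2L1 (chr22:21642099-21642139, plus strand) held ERSE-II, in SDF2L1 in reverse. Of 35116 windows in the whole set, 0.0769% held ERSE and 0.0541% held ERSE-II. UPRE was found in 0.729% of all windows and in none of the 10, which says only that these letters are not in these windows.

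ERN1 and DNAJB9, the members called higher against either nontargeting siRNA when the on-target siRNAs were averaged, held no match of a whole element. The 250 bases before their starts are shown for comparison, with CCAAT and CCACG, in either orientation, in capitals.
ERN1: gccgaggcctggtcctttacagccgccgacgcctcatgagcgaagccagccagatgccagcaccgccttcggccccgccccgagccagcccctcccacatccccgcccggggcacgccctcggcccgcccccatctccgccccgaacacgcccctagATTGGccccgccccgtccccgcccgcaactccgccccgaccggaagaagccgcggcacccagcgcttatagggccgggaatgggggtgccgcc
DNAJB9: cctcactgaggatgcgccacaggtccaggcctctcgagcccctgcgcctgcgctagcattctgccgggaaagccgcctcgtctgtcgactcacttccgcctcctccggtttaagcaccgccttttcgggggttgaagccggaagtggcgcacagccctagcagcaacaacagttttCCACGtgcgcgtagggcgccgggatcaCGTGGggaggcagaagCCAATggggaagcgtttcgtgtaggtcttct
ERN1 (chr17:64130145-64130394, minus strand) held 1 CCAAT and no CCACG. DNAJB9 (chr7:108569624-108569873, plus strand) held 1 CCAAT and 2 CCACG. These short letters are common, since 34.6% of all windows held CCAAT and 38.1% held CCACG.

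Depletion was seen in the counts of the targeted genes. TSG101 lay between 2.49 and 4.99 TMM-normalized CPM (counts scaled to library size) in the 6 libraries with siTsg101 and between 74.5 and 167 CPM in the other 12, and VPS28 lay between 3.48 and 7.78 CPM in the 6 libraries with siVps28 and between 65.1 and 112 CPM in the other 12. Each library held between 2561790 and 7466916 counted reads. Of the epithelial markers EPCAM (21 to 82 counts), KRT8 (14 to 133) and KRT18 (166 to 517) were found in every library, whereas CDH1 was at 0 in all 18. PTPRC, a marker of leukocytes, and COL3A1, a marker of fibroblasts, were at 0 in all 18 libraries too, PECAM1 reached at most 2 counts and COL1A1 at most 11.

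In the mean of the 4 on-target siRNAs, ERN1 and DNAJB9 were called higher against either nontargeting siRNA. The major ER chaperones HSPA5 and HSP90B1 were called against neither. The call of ERN1 against siCtrl#1 was lost without replicate 1 of siCtrl#1 (0.71, edgeR adjusted p = 0.0899), whereas that of DNAJB9 held without any one library. A gene was called when it changed by at least 1.5-fold with an adjusted p under 0.05 in edgeR's quasi-likelihood test. In the mean of the 4 on-target siRNAs relative to siCtrl#1, 3 of the 10 genes were called higher (ERN1, DNAJB9 and DNAJC3), against 8.56% of all tested genes called higher. None of the 10 was called lower, where 6.54% of all genes were, and neither DESeq2 nor an unadjusted p under 0.05 put any of them among the lower genes. The median log2 fold change of the 10 was 0.297, and that of all tested genes was -0.003. With siCtrl#2 as the reference, the median of the 10 was 0.047 and 2 were called higher (ERN1 and DNAJB9; 6.13% of all genes). The comparisons with siCtrl#1 share its 3 libraries, so that the 4 siRNAs are not independent checks of one another.

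**Figure D1:**
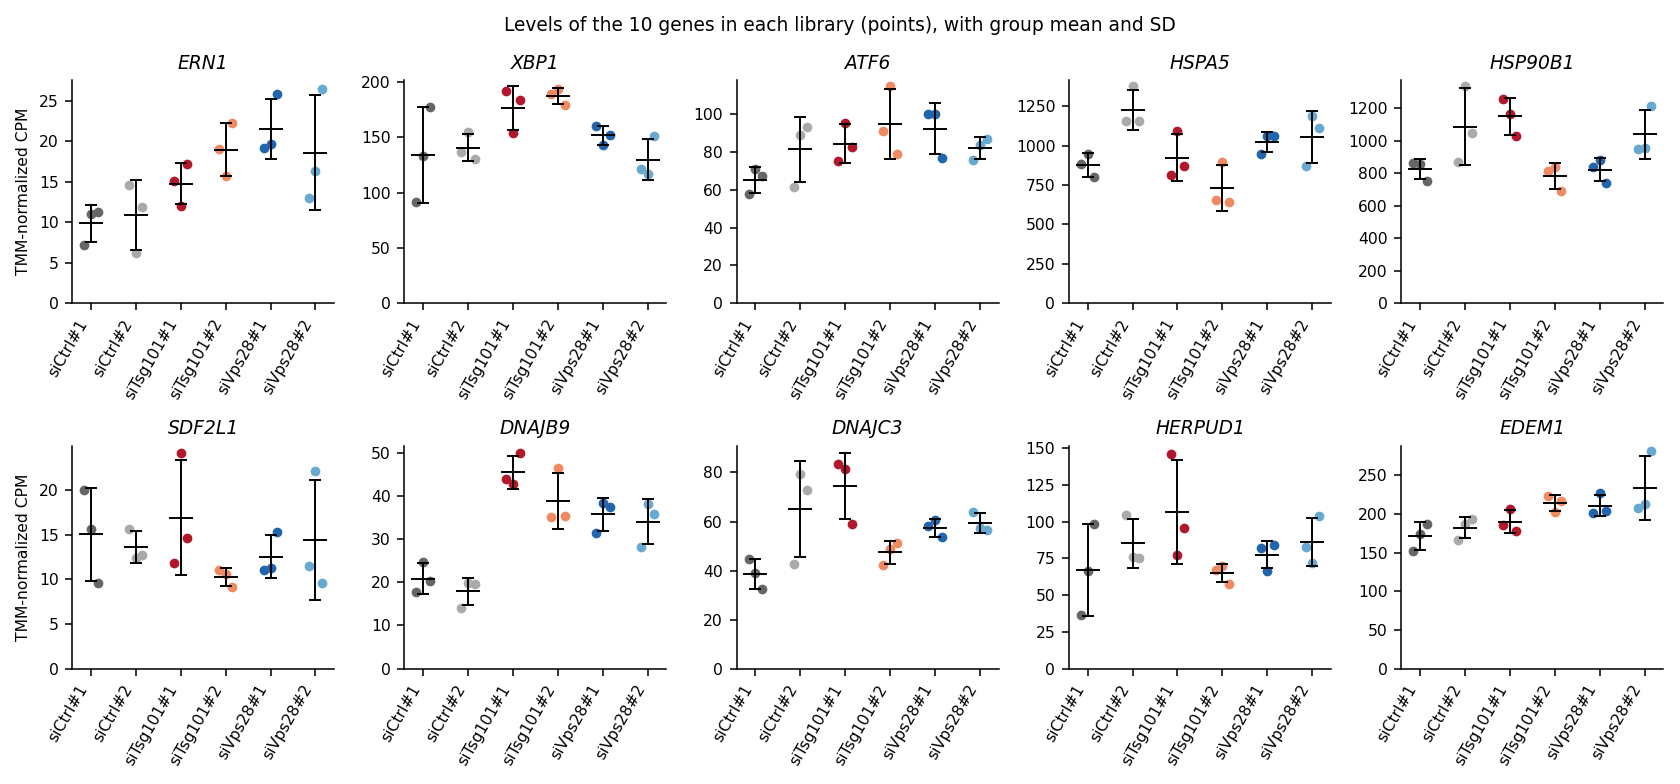
Levels of the 10 genes as TMM-normalized CPM (vertical axes, from 0) in the 18 libraries, with 3 points per siRNA group and the group mean ± SD. The 12 on-target libraries of DNAJB9 lie between 28.1 and 49.8 CPM, all above the 6 control libraries.

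ERN1 (chr17:62116440-62208179 on GRCh37, minus strand) encodes IRE1, the sensor kinase and endoribonuclease that splices XBP1 mRNA. It was measured at 7.25, 11.1 and 11.3 CPM with siCtrl#1 and at 14.7, 6.19 and 11.95 CPM with siCtrl#2. With siTsg101#1 it was at 15.1, 12.1 and 17.2 CPM, and with siTsg101#2 at 19.0, 15.7 and 22.3 CPM. With siVps28#1 it was at 19.2, 19.7 and 25.9 CPM, and with siVps28#2 at 13.0, 16.4 and 26.6 CPM. The highest control library, 1 of siCtrl#2, overlapped only the lowest libraries of siTsg101#1 and siVps28#2, and 10 of the 12 on-target libraries lay above all 6 controls. At least 10 did so for 5.23% of all tested genes.

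The log2 fold change of ERN1 in the mean of the 4 siRNAs was 0.90 (SE 0.24, edgeR adjusted p = 0.00917), which is 1.86-fold. It was called with siTsg101#2 (0.94, adjusted p = 0.0222), siVps28#1 (1.13, adjusted p = 0.0153) and siVps28#2 (0.91, adjusted p = 0.0330), and missed the threshold with siTsg101#1 (0.60, adjusted p = 0.149). siCtrl#2 differed from siCtrl#1 by 0.15 (SE 0.31, adjusted p = 0.881). Relative to siCtrl#2 the mean of the 4 siRNAs was 0.74 higher (adjusted p = 0.0336) and was called, but no single siRNA was. The values against siCtrl#2 were 0.45 with siTsg101#1 (adjusted p = 0.322), 0.79 with siTsg101#2 (adjusted p = 0.0564), 0.98 with siVps28#1 (adjusted p = 0.0513) and 0.76 with siVps28#2 (adjusted p = 0.0927). The counts of ERN1 were low, 25 to 153 per library, and the calls rested on few libraries. Without replicate 1 of siCtrl#1, its lowest library there, the mean was 0.71 (adjusted p = 0.0899), and the calls with siTsg101#2 (0.75), siVps28#1 (0.95) and siVps28#2 (0.73) were lost too. The call with siTsg101#2 was also lost without its own replicate 1 (adjusted p = 0.0534) or 3 (adjusted p = 0.0874), that with siVps28#1 without its own replicate 3 (adjusted p = 0.0862), and that with siVps28#2 without its own replicate 3 (0.57, adjusted p = 0.225) or without replicate 2 or 3 of siCtrl#1 (adjusted p = 0.0591 and 0.0505). In the GRCh37 annotation, 884 exonic bases of ERN1 lie opposite antisense genes, whose reads cannot be separated without the strand setting of the counting.

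XBP1 (chr22:29190543-29196585 on GRCh37, minus strand) encodes the transcription factor made active by IRE1. Its counts do not separate spliced from unspliced mRNA, so they give the level of the transcript and not its activation. XBP1 was at 91.3, 133 and 178 CPM with siCtrl#1 and at 137, 155 and 131 CPM with siCtrl#2. With siTsg101#1 it was at 192, 154 and 184 CPM, and with siTsg101#2 at 189, 194 and 179 CPM. With siVps28#1 it was at 160, 143 and 152 CPM, and with siVps28#2 at 122, 117 and 151 CPM. The siCtrl#1 libraries were spread over most of this range, and the siVps28 libraries lay within it.

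XBP1 was not called with any of the 4 siRNAs or in their mean (0.25, SE 0.15, edgeR adjusted p = 0.227, 95% interval -0.05 to 0.55). The values were 0.39 with siTsg101#1 (adjusted p = 0.116) and 0.48 with siTsg101#2 (adjusted p = 0.0613). Without replicate 3 of siCtrl#1, the highest library of that group, XBP1 was called with both (0.65, adjusted p = 0.0134, and 0.73, adjusted p = 0.00812).

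ATF6 (chr1:161736088-161947364 on GRCh37, plus strand) encodes the membrane-bound factor cleaved in the Golgi. It was at 57.8, 71.0 and 67.02 CPM with siCtrl#1 and at 61.6, 89.1 and 92.9 CPM with siCtrl#2. With siTsg101#1 it was at 74.9, 95.2 and 82.6 CPM, and with siTsg101#2 at 90.9, 115 and 78.6 CPM. With siVps28#1 it was at 99.9, 99.9 and 76.7 CPM, and with siVps28#2 at 75.5, 83.4 and 86.9 CPM. All 12 on-target libraries lay above the 3 of siCtrl#1, as in 5.87% of tested genes, but only 4 of them lay above siCtrl#2 as well. The mean of the 4 siRNAs was 1.35-fold the level with siCtrl#1 (SE of the log2 value 0.15, edgeR adjusted p = 0.0317), under the 1.5-fold needed for a call, and relative to siCtrl#2 it was 0.12 on the log2 scale (adjusted p = 0.630). With siTsg101#2 the change was 0.54 (adjusted p = 0.0334), and without replicate 3 of that group ATF6 was called (0.65, adjusted p = 0.0229).

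HSPA5 (chr9:127997132-128003661 on GRCh37, minus strand) encodes BiP, the most abundant ER chaperone of the Hsp70 family, which also holds the stress sensors inactive. Its libraries were at 883, 948 and 799 CPM with siCtrl#1 and at 1154, 1374 and 1154 CPM with siCtrl#2. They were at 812, 1090 and 868 CPM with siTsg101#1, and at 654, 897 and 639 CPM with siTsg101#2. They were at 948, 1060 and 1060 CPM with siVps28#1, and at 869, 1186 and 1109 CPM with siVps28#2. The highest library was of siCtrl#2, whose 3 libraries lay above all of siCtrl#1 (as in 8.61% of tested genes), and the 2 lowest were of siTsg101#2. The mean of the 4 siRNAs differed from siCtrl#1 by 0.08 on the log2 scale (SE 0.13, edgeR adjusted p = 0.724, 95% interval -0.20 to 0.35). siCtrl#2 lay 0.49 above siCtrl#1 (adjusted p = 0.144, and 0.0474 with the replicate number as a block), where the 4 on-target siRNAs lay between -0.26 and 0.27. Relative to siCtrl#2, HSPA5 was called lower with siTsg101#2 (-0.75, adjusted p = 0.00271, against 5.98% of all genes called lower), and the mean of the 4 was -0.41 (adjusted p = 0.0285), under the 1.5-fold mark.

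HSP90B1 (chr12:104323885-104347709 on GRCh37, plus strand) encodes the Hsp90 chaperone of the ER. It was at 863, 860 and 754 CPM with siCtrl#1 and at 873, 1341 and 1046 CPM with siCtrl#2. It was at 1255, 1165 and 1033 CPM with siTsg101#1, and at 815, 842 and 693 CPM with siTsg101#2. It was at 842, 885 and 743 CPM with siVps28#1, and at 949, 957 and 1214 CPM with siVps28#2. The siTsg101#1 and siVps28#2 libraries lay above all 3 of siCtrl#1, as in 20.8% and 16.4% of tested genes. The 3 siCtrl#2 libraries did so too, as in 8.61% of tested genes. The siTsg101#2 and siVps28#1 libraries overlapped those of siCtrl#1. The mean of the 4 was 0.18 (SE 0.13, edgeR adjusted p = 0.332, 95% interval -0.09 to 0.45), and siCtrl#2 was at 0.40 (adjusted p = 0.247). With siTsg101#1 alone the change was 0.48 (adjusted p = 0.0320), under 1.5-fold. HSP90B1 shares 910 exonic bases with antisense genes and 131 with MIR3652 on its own strand.

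SDF2L1 (chr22:21996591-21998588 on GRCh37, plus strand) encodes a small partner of ER chaperones. It was at 15.1 ± 5.21 CPM with siCtrl#1 and 13.6 ± 1.81 CPM with siCtrl#2 (mean ± SD, n = 3). With siTsg101#1 it was at 16.9 ± 6.43 CPM, with siTsg101#2 at 10.3 ± 1.01 CPM, with siVps28#1 at 12.6 ± 2.42 CPM and with siVps28#2 at 14.4 ± 6.77 CPM. Every on-target group overlapped with siCtrl#1. In the mean of the 4 siRNAs the change was -0.16 (SE 0.24, edgeR adjusted p = 0.688, 95% interval -0.66 to 0.34), an interval wide enough to hold a 1.5-fold fall.

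**Figure D2:**
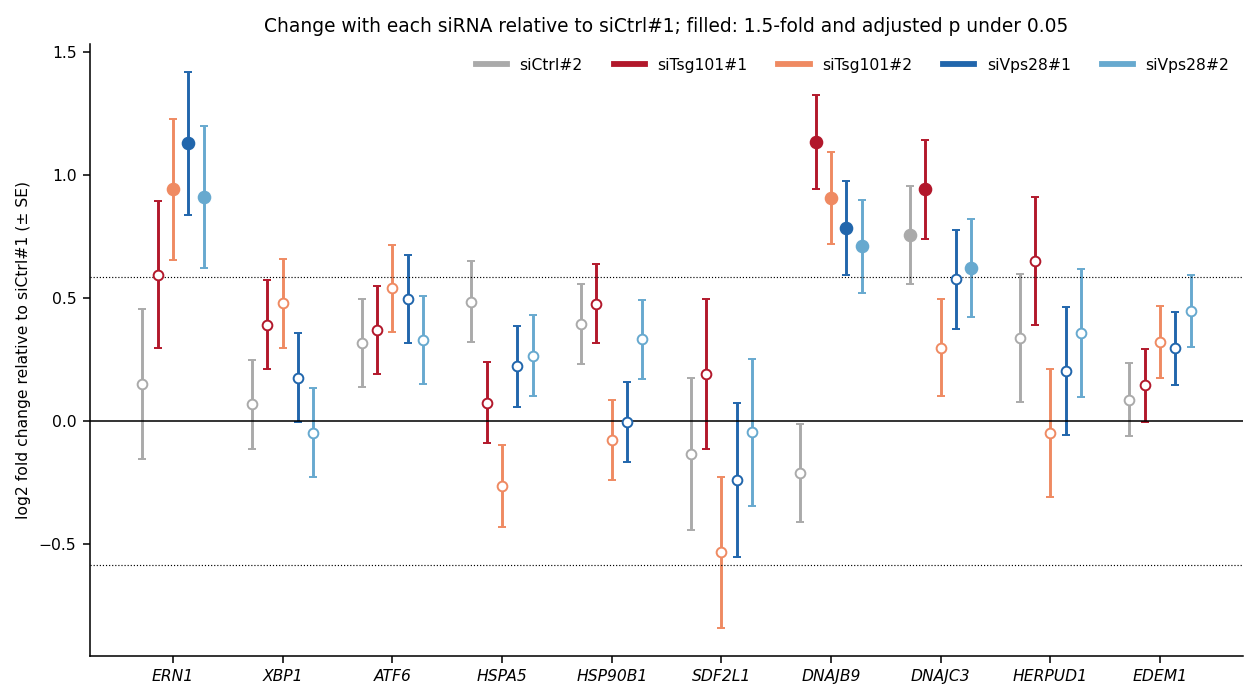
log2 fold changes (± SE, vertical axis) of the 10 genes with siCtrl#2 and the 4 on-target siRNAs relative to siCtrl#1; filled points were called and dotted lines mark 1.5-fold. DNAJB9 is filled for all 4 on-target siRNAs, and DNAJC3 is filled for siCtrl#2 at 0.76 as well as for siTsg101#1 and siVps28#2.

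DNAJB9 (chr7:108210311-108215294 on GRCh37, plus strand) encodes an ER J-domain co-chaperone of BiP that represses IRE1 and is itself an XBP1 target. It was at 17.7, 24.6 and 20.3 CPM with siCtrl#1 and at 14.2, 19.8 and 19.7 CPM with siCtrl#2. It was at 43.8, 42.8 and 49.8 CPM with siTsg101#1, and at 35.1, 46.4 and 35.2 CPM with siTsg101#2. It was at 31.4, 38.4 and 37.3 CPM with siVps28#1, and at 28.1, 38.2 and 35.8 CPM with siVps28#2. All 12 on-target libraries lay above all 6 control libraries, as 1.96% of tested genes did. In counts these are 56 to 119 reads per control library and 107 to 357 per on-target library.

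DNAJB9 was called higher with each of the 4 siRNAs, by 1.14 with siTsg101#1 (SE 0.19, edgeR adjusted p = 0.000119), 0.91 with siTsg101#2 (adjusted p = 0.00135), 0.78 with siVps28#1 (adjusted p = 0.0103) and 0.71 with siVps28#2 (adjusted p = 0.0113). It was 1 of 10 members called higher with all 4, as were 2.58% of all tested genes. Its mean over the 4 siRNAs was 0.89 (SE 0.16, adjusted p = 0.00025), 1.85-fold, and siCtrl#2 lay on the other side of siCtrl#1 at -0.21 (adjusted p = 0.688). Relative to siCtrl#2 the mean was 1.10 (adjusted p = 4.75e-05). The mean was called without any one of the 18 libraries, with values from 0.78 to 1.00. Without replicate 1 of siCtrl#1 the calls with siVps28#1 (0.68, adjusted p = 0.0694) and siVps28#2 (0.61, adjusted p = 0.0722) were lost, and the latter also without replicate 2 of siVps28#2 (0.62, adjusted p = 0.0518). DNAJB9 has no overlapping gene and no shared 50-base stretch in the annotation.

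DNAJC3 (chr13:96329393-96447242 on GRCh37, plus strand) encodes a J-domain co-chaperone of BiP in the ER lumen. It was at 44.6, 39.0 and 32.3 CPM with siCtrl#1 and at 42.7, 79.5 and 73.0 CPM with siCtrl#2. It was at 83.5, 81.3 and 59.0 CPM with siTsg101#1, and at 42.3, 48.9 and 51.2 CPM with siTsg101#2. It was at 58.4, 60.7 and 53.6 CPM with siVps28#1, and at 64.0, 57.5 and 56.8 CPM with siVps28#2. The siCtrl#1 libraries held the 2 lowest values of the series, their highest overlapped siTsg101#2 and siCtrl#2, and siCtrl#2 spanned nearly the same range as the 12 on-target libraries.

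DNAJC3 was called higher in the mean of the 4 siRNAs relative to siCtrl#1 (0.61, SE 0.16, edgeR adjusted p = 0.00857), with siTsg101#1 (0.94, adjusted p = 0.00125) and with siVps28#2 (0.62, adjusted p = 0.0343). It was also called higher between the nontargeting siRNAs, with siCtrl#2 at 0.76 (adjusted p = 0.0450). It was the only member called there, where 1.41% of all genes were called higher. Relative to siCtrl#2 the mean of the 4 was -0.15 (SE 0.15, adjusted p = 0.570), so that the call depended on the nontargeting siRNA. The call of the mean was lost without replicate 3 of siCtrl#1 (0.49, adjusted p = 0.0839), and that with siVps28#2 without replicate 2 or 3 of siCtrl#1 or any of its own replicates (0.50 to 0.65, adjusted p = 0.0530 to 0.154). The call with siCtrl#2 was lost in 14 of the 18 fits that left out 1 library, including those without any one library of siCtrl#1 or without replicate 2 or 3 of siCtrl#2 (0.59 to 0.88, adjusted p = 0.0613 to 0.226).

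HERPUD1 (chr16:56966054-56978776 on GRCh37, plus strand) encodes an ER membrane protein of the ERAD ubiquitin ligase complex. It was at 36.3, 66.1 and 98.5 CPM with siCtrl#1 and at 104, 76.0 and 75.2 CPM with siCtrl#2. It was at 146, 77.4 and 95.8 CPM with siTsg101#1, and at 67.4, 69.9 and 57.8 CPM with siTsg101#2. It was at 81.9, 66.7 and 84.0 CPM with siVps28#1, and at 83.0, 71.7 and 104 CPM with siVps28#2. The siCtrl#1 libraries alone spanned a wide range, and 11 of the 12 on-target libraries fell within that of the 6 controls. In the mean of the 4 siRNAs the change was 0.29 (SE 0.21, edgeR adjusted p = 0.339, 95% interval -0.14 to 0.72). Without replicate 3 of siCtrl#1 it was 0.69 (adjusted p = 0.0398) and was called, and HERPUD1 was then called with siTsg101#1 as well (1.05, adjusted p = 0.00707). The call with siTsg101#1, which the full set missed (0.65, adjusted p = 0.0689), was also made without its own replicate 2 (0.83, adjusted p = 0.0317). With every library kept but no low-count filter, it was made too (0.645, adjusted p = 0.00498).

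EDEM1 (chr3:5229331-5261643 on GRCh37, plus strand) encodes a mannosidase-like protein that directs misfolded glycoproteins to ERAD. It was at 172 ± 17.7 CPM with siCtrl#1 and 182 ± 13.8 CPM with siCtrl#2 (mean ± SD, n = 3). It was at 190 ± 14.8 CPM with siTsg101#1, 215 ± 10.3 CPM with siTsg101#2, 211 ± 13.7 CPM with siVps28#1 and 234 ± 41.5 CPM with siVps28#2. As with ERN1, 10 of the 12 on-target libraries lay above all 6 controls, with the other 2 from siTsg101#1. At least 10 did so for 5.23% of all tested genes. The change of EDEM1 was small, 0.30 in the mean of the 4 siRNAs (1.23-fold, SE 0.12, edgeR adjusted p = 0.0678, and 0.0491 with the replicate number as a block), and siCtrl#2 was at 0.09 (adjusted p = 0.848). EDEM1 has 631 exonic bases opposite an antisense gene.

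In the mean of the 4 siRNAs, ERN1 and DNAJB9 were called higher against siCtrl#1, siCtrl#2 and the average of both (0.82, adjusted p = 0.00152, and 0.99, adjusted p = 1.5e-06, in edgeR for the last). Taken singly against siCtrl#2, all 4 siRNAs gave a call for DNAJB9 (0.92 to 1.35) and none did for ERN1. XBP1, ATF6 and EDEM1 were positive but uncalled against each. HSPA5, HSP90B1, DNAJC3 and HERPUD1 were positive against siCtrl#1 and negative against siCtrl#2 (-0.41, -0.21, -0.15 and -0.05, with edgeR adjusted p = 0.0285, 0.267, 0.570 and 0.911). Of these, only DNAJC3 was called against siCtrl#1 and none against siCtrl#2. In the direct comparison of the nontargeting siRNAs, 8 of the 10 members were higher with siCtrl#2, with a median of 0.234 against 0 for all genes.

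**Figure D3:**
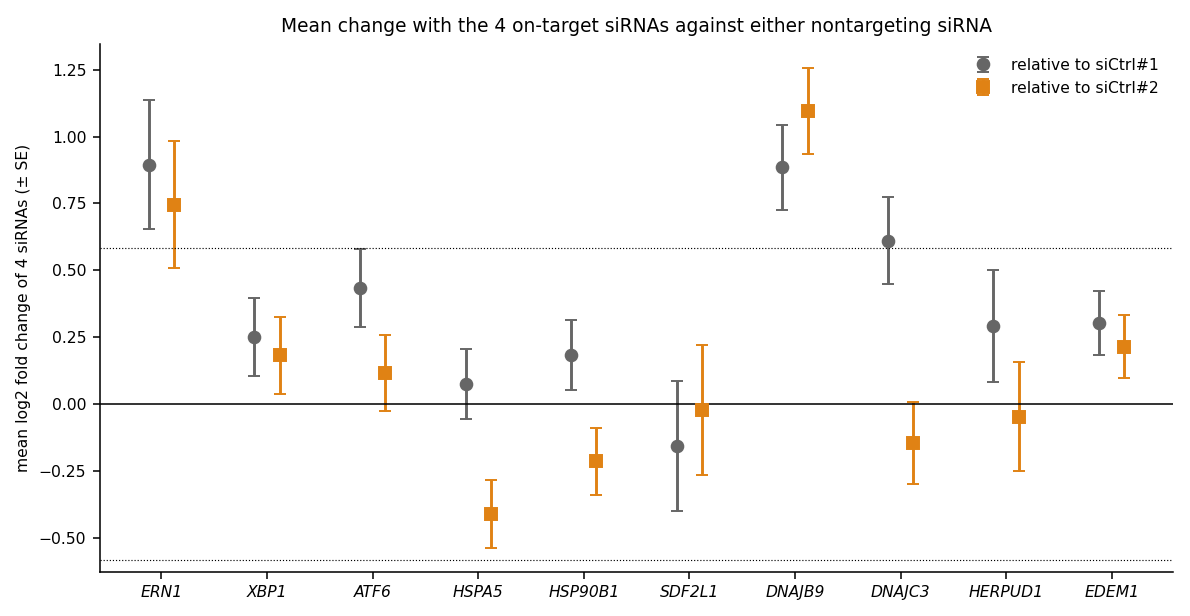
Mean log2 fold change (± SE, vertical axis) of the 4 on-target siRNAs for each of the 10 genes, relative to siCtrl#1 (circles) and to siCtrl#2 (squares), with dotted lines at 1.5-fold. ERN1 (0.90 and 0.74) and DNAJB9 (0.89 and 1.10) are above the upper line on both scales, and DNAJC3 moves from 0.61 to -0.15.

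By siRNA, 2 members were called higher with siTsg101#1 (DNAJB9 and DNAJC3), where 11.8% of all genes were, and 2 with siTsg101#2 (ERN1 and DNAJB9), where 10.4% were. With siVps28#1 the 2 were ERN1 and DNAJB9 against 4.92% of all genes, and with siVps28#2 the 3 were ERN1, DNAJB9 and DNAJC3 against 7.09%. Depletion of Tsg101 and of Vps28 was compared directly as well, as the mean of both siTsg101 groups minus that of both siVps28 groups. No member was called in that edgeR comparison, in which 6.23% of all genes were, and DESeq2 called none of them either. At an unadjusted p under 0.05, 2 members were higher with Tsg101 depletion and 1 was lower. XBP1 was 0.37 higher (SE 0.13, adjusted p = 0.0599, and 0.0433 with the replicate block), DNAJB9 was 0.27 higher (SE 0.13, adjusted p = 0.181), and HSPA5 was -0.34 (SE 0.12, adjusted p = 0.0608, and 0.0151 with the block). These sizes lay under 1.5-fold, and for ERN1 the difference was -0.25 with a 95% interval of -0.65 to 0.15.

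The siRNAs to TSG101 differed in DNAJC3, which was 0.64 higher with siTsg101#1 than with siTsg101#2 (SE 0.20, edgeR adjusted p = 0.0421), the only member called there against 3.11% of all genes called higher. For DNAJC3 and HSP90B1 all siTsg101#1 libraries lay above all of siTsg101#2, as in 13.9% of tested genes. The call was lost in 6 of the fits that left out 1 library, namely without replicate 1 or 2 of siTsg101#1, any replicate of siTsg101#2 or replicate 1 of siVps28#1 (0.57 to 0.71, adjusted p = 0.0524 to 0.157). HSP90B1 differed by 0.55 (SE 0.16, adjusted p = 0.0356), under 1.5-fold. HERPUD1 (0.70, adjusted p = 0.101) and SDF2L1 (0.73, adjusted p = 0.155) did not pass the test, though HERPUD1 was called without replicate 1 of siCtrl#1 (adjusted p = 0.0457). HERPUD1 was also called with no low-count filter (adjusted p = 0.00592) and with only the groups compared in the fit (adjusted p = 0.0349). No member was called between siVps28#1 and siVps28#2 with edgeR or DESeq2 (0.480% of all genes in edgeR), and HSP90B1 had an unadjusted p under 0.05 (-0.34, adjusted p = 0.614).

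The promoter elements were then set beside the changes. None of the 5 members with ERSE or ERSE-II (XBP1, HSPA5, HSP90B1, HERPUD1 and SDF2L1) was called in the mean of the 4 siRNAs relative to siCtrl#1, and none of the 3 called members (ERN1, DNAJB9 and DNAJC3) held either. With 8.56% of all tested genes called higher, a count of 0 among 5 genes is near the background. Beyond the members, 15 tested genes held ERSE, members included, with a median change of -0.018. CANX, the lectin chaperone calnexin, was the 1 of them called higher (0.67, edgeR adjusted p = 0.000837). Of 11 tested genes with ERSE-II none was called higher, with a median of -0.020, and the 2 called lower were RAD9A (-1.34, adjusted p = 2.49e-05) and SHCBP1 (-0.81, adjusted p = 0.000216), named here after their values were seen. PLS3 had the only higher value with an adjusted p under 0.05 among them (0.57, adjusted p = 0.00478), just short of 1.5-fold. The median over the 8431 tested genes with a window was -0.006.

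**Figure D4:**
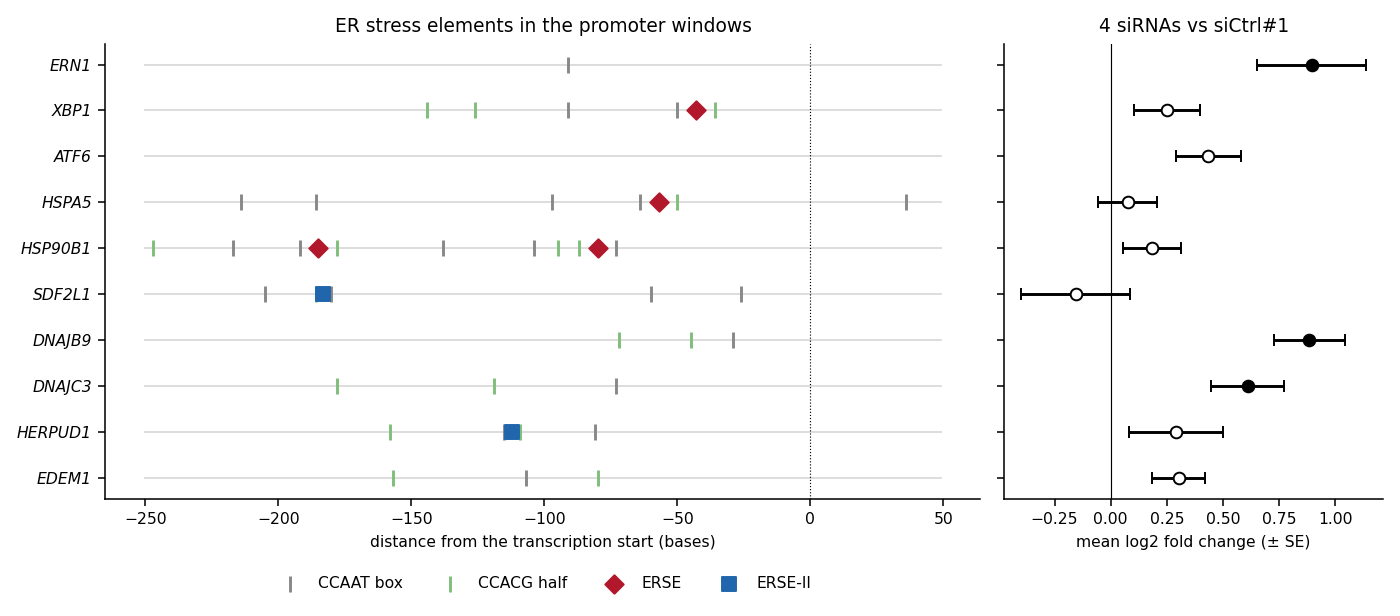
Left, positions of the CCAAT box, the CCACG box, ERSE and ERSE-II in the promoter windows of the 10 genes (horizontal axis, bases from the transcription start); right, the mean log2 fold change (± SE) of the 4 on-target siRNAs relative to siCtrl#1, filled where called. The 5 genes with a whole element have open points, and ATF6 has no match of any kind.

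Other genes of the pathway were taken in 5 lists (mean of the 4 siRNAs relative to siCtrl#1, edgeR). In that comparison 8.56% of all tested genes were called higher and 6.54% lower. Of 13 tested regulators of IRE1 and ATF6, 3 were called higher and 1 lower, with a median of 0.281. MBTPS1, which encodes S1P, was called higher with all 4 siRNAs (mean 0.79, adjusted p = 0.00103), against 2.58% of all tested genes. However, siCtrl#2 was higher by 0.91 as well (adjusted p = 0.0122). CREB3, a membrane-bound factor related to ATF6, was at 0.87 (adjusted p = 0.00426), and WFS1, an ER membrane protein that restrains ATF6, at 0.83 (adjusted p = 0.00186). Relative to siCtrl#2 they were at 0.47 (adjusted p = 0.116) and 0.45 (adjusted p = 0.0804). WFS1 was 0.78 higher with Tsg101 than with Vps28 depletion (SE 0.15, adjusted p = 0.000933). RTCB, the ligase that joins the spliced XBP1 mRNA, was at 0.56 (adjusted p = 0.00987), under 1.5-fold, and at 0.09 relative to siCtrl#2 (adjusted p = 0.738). MBTPS2, which encodes S2P, was at 0.34 (adjusted p = 0.324) and ATF6B at -0.22 (adjusted p = 0.278). TRAF2, an adaptor of IRE1, was the one called lower (-0.65, adjusted p = 0.0210, and -0.47 with adjusted p = 0.125 relative to siCtrl#2), and it is named here after its value was seen.

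Of 26 tested chaperones and folding enzymes of the ER other than the members, 2 were called higher and 0 lower by edgeR. Over all tested genes the shares were 8.56% and 6.54%, and the list median was -0.019. At an unadjusted p under 0.05, 2 of the list were lower (DNAJB11 and CRELD2). CRELD2 was at -0.56 relative to siCtrl#1 (adjusted p = 0.0514). Relative to siCtrl#2 it was at -0.76 (adjusted p = 0.0117), past both thresholds of a call. PDIA6 was at -0.20 relative to siCtrl#1 (adjusted p = 0.273) and at -0.56 relative to siCtrl#2 (adjusted p = 0.00273), under 1.5-fold. CRELD2 and PDIA6 are named after their values were seen. PDIA4, a protein disulfide isomerase, had the largest change (1.63, SE 0.24, adjusted p = 3.53e-05), but siCtrl#2 stood 1.22 above siCtrl#1 (adjusted p = 0.0239) and relative to siCtrl#2 the mean was 0.41 (adjusted p = 0.196). PDIA4 was low with siCtrl#1, at 5.927 ± 1.895 CPM (mean ± SD). It was 1.17 higher with Tsg101 than with Vps28 depletion (SE 0.18, adjusted p = 6.84e-05). CANX (0.67) was highest with siTsg101#2 (1.52), with 0.33 to 0.46 for the other 3 siRNAs. Relative to siCtrl#2 its mean was 0.46 (adjusted p = 0.0181), under 1.5-fold. P4HB, another disulfide isomerase, was at 0.45 (adjusted p = 0.0134) and ERP44, a thiol-dependent retention factor, at 0.42 (adjusted p = 0.0228), both under 1.5-fold, and relative to siCtrl#2 they were at 0.05 and -0.05. CALR was at -0.16 (adjusted p = 0.484), HYOU1 at 0.14 (adjusted p = 0.570) and DNAJB11, a BiP co-chaperone, at -0.31 (adjusted p = 0.0466).

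Of 20 tested ERAD genes, 4 were called higher (against 8.56% of all tested genes) and 1 lower (against 6.54%), with a median of 0.126. DERL1 (0.72, adjusted p = 0.000263) and DERL2 (0.90, adjusted p = 0.0016), which encode derlins of the retrotranslocation channel, were higher, and both were also called higher with siCtrl#2 (0.82, adjusted p = 0.00447, and 0.96, adjusted p = 0.0279). The other 2 called higher, FAF2 (1.03, adjusted p = 0.00747) and MAN1B1 (1.16, adjusted p = 0.0437), are named after their values were seen. Relative to siCtrl#2 they were at 1.31 (adjusted p = 0.00222) and 2.07 (adjusted p = 0.00448). Their levels with siCtrl#1 were low, 3.10 ± 1.17 CPM for FAF2 and 0.954 ± 0.566 CPM for MAN1B1 (mean ± SD), so these changes rest on few reads. Both were higher with Tsg101 than with Vps28 depletion, FAF2 by 1.90 (SE 0.21, adjusted p = 8.97e-07) and MAN1B1 by 1.92 (SE 0.30, adjusted p = 0.000107), and their values with the siVps28 siRNAs were -0.28 and 0.43, and -0.04 and 0.43. DERL2 (0.96, adjusted p = 0.00014) and SELENOS (0.92, adjusted p = 0.0188), the latter named after its value was seen, were higher with Tsg101 depletion too. SELENOS was also low, at 2.50 ± 0.526 CPM with siCtrl#1. RNF5, a ubiquitin ligase, was called lower (-0.60, adjusted p = 0.00518), with siCtrl#2 at -0.47 (adjusted p = 0.255), and relative to siCtrl#2 it was at -0.13 (adjusted p = 0.636). UBE2G2, a ubiquitin-conjugating enzyme, was at -0.49 (adjusted p = 0.0031), and at -0.34 relative to siCtrl#2 (adjusted p = 0.0515). SEL1L, the scaffold of the main ERAD ligase, was the 1 gene of the list called lower with Tsg101 than with Vps28 depletion (-0.71, SE 0.11, adjusted p = 9.29e-05). Relative to siCtrl#1, SEL1L was at 0.009 and 0.222 with the siTsg101 siRNAs and at 0.785 and 0.875 with the siVps28 siRNAs. With siCtrl#2 it was called higher as well (0.873, adjusted p = 0.00321). The mean of the 4 siRNAs for SEL1L was 0.472 (adjusted p = 0.0102), and -0.401 relative to siCtrl#2 (adjusted p = 0.0241), both under 1.5-fold. Its ligase SYVN1 was at -0.15 in the mean of the 4 (adjusted p = 0.560).

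Of 25 tested genes of ER translocation and ER-to-Golgi transport, 2 were called higher (against 8.56% of all tested genes) and 1 lower (against 6.54%). The median was 0.029. SRPRA, the signal recognition particle receptor subunit, was called higher with all 4 siRNAs (mean 0.74, SE 0.14, adjusted p = 0.000458), against 2.58% of all tested genes. For SRPRA siCtrl#2 was at -0.14 (adjusted p = 0.761), and the mean relative to siCtrl#2 was 0.88 (adjusted p = 0.000118). SEC24A, of the vesicle coat COPII, was at 0.86 (adjusted p = 0.000955), but at 0.48 relative to siCtrl#2 (adjusted p = 0.0547). KDELR3, a retrieval receptor named after its value was seen, was at -0.81 (adjusted p = 0.00627), and at -1.07 relative to siCtrl#2 (adjusted p = 0.000605). SEC62, of the translocon, was at 0.52 (adjusted p = 0.00461), under 1.5-fold, whereas siCtrl#2 was called at 0.79 (adjusted p = 0.00515) and the mean relative to siCtrl#2 was -0.28 (adjusted p = 0.118). SRPRB was at -0.44 (adjusted p = 0.00532), under 1.5-fold, and at -0.26 relative to siCtrl#2 (adjusted p = 0.129). SSR3 and SSR1, named after their values were seen, were at -0.25 (adjusted p = 0.273) and -0.36 (adjusted p = 0.168) relative to siCtrl#1. Relative to siCtrl#2 they were at -0.73 (adjusted p = 0.00215) and -0.61 (adjusted p = 0.0215), past both thresholds of a call.

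Of 9 tested genes of the PERK branch, 1 was called higher (against 8.56% of all tested genes) and 0 lower (against 6.54%) by edgeR. The median was 0.185. At an unadjusted p under 0.05, 2 were lower (NUPR1 and EIF2S1). The one called was SESN2, a stress-induced regulator of mTORC1 (0.92, SE 0.24, adjusted p = 0.00805), and relative to siCtrl#2 it was at 0.84 (adjusted p = 0.0196). EIF2AK3, which encodes PERK, was at 0.24 (adjusted p = 0.415), ATF4 at 0.12 (adjusted p = 0.648), PPP1R15A at -0.17 (adjusted p = 0.513), TRIB3 at 0.64 (adjusted p = 0.0743), NUPR1 at -0.69 (adjusted p = 0.0849) and EIF2S1 at -0.31 (adjusted p = 0.112). DDIT3, which encodes the stress-induced factor CHOP, had 0 to 7 counts per library and could not be tested.

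**Figure D5:**
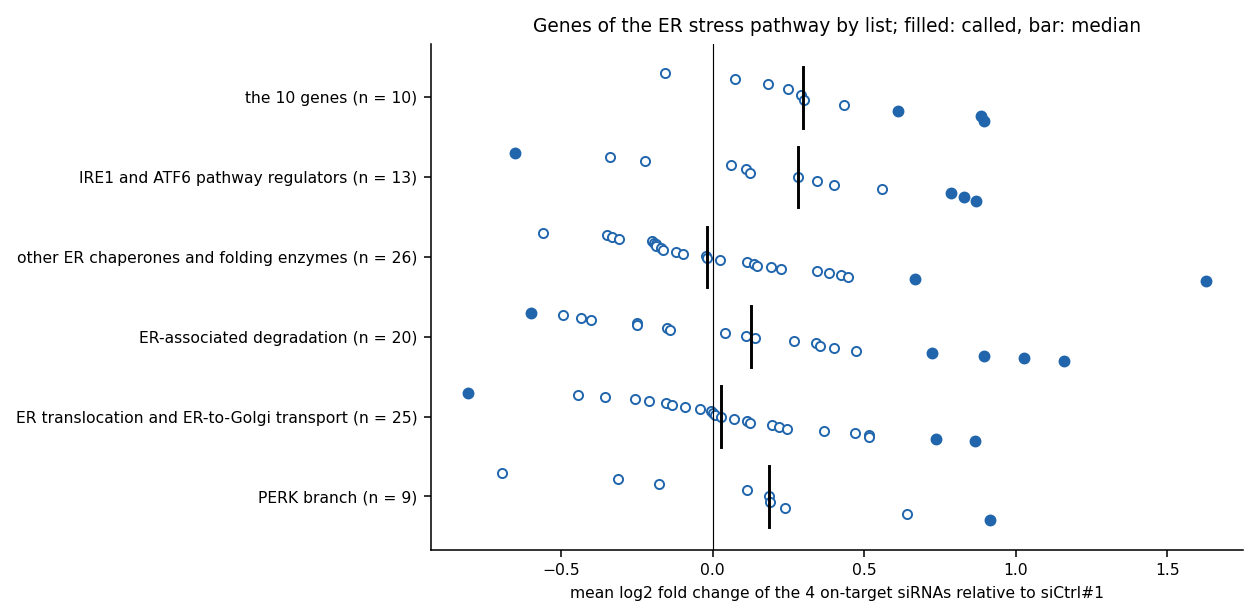
Mean log2 fold change of the 4 on-target siRNAs relative to siCtrl#1 (horizontal axis) for each tested gene of the 6 lists, filled where called, with a bar at the list median. The medians run from -0.019 for the other ER chaperones to 0.297 for the 10 genes, and 3 of the lists hold 1 gene called lower.

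Over the 18 libraries, the genes most like HSPA5 in log2 CPM were ADAR (Pearson's r = 0.889), SRP72 (0.859) and TMED7 (0.842), which changed by -0.14 to 0.03 in the mean of the 4 siRNAs. Among those most like ERN1 were NEU1 (0.886) and CLN8 (0.878), which were 0.92 and 0.70 higher. These values describe the 18 libraries, which share their siRNA groups and batches. Levels were not compared between genes, as each transcript was read from its own amplicon and yields differ.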

How the data were processed

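The authors made libraries from total RNA with the Ion AmpliSeq Transcriptome panel and sequenced them on an Ion Proton. Alignment to hg19, in the panel's version, used the Torrent Mapping Alignment Program, and counting used HTSeq 0.6.0. The deposited counts are whole reads per RefSeq target, not normalized or filtered. The strand setting is not given in the sources used here, and amplicon positions were not used here. Between 45.4 and 46.68% of reads were counted, and 48.23 to 49.07% fell on no target. Reads carry no molecular identifiers, so tests rest on the spread between replicates, and p-values measure only that spread. The labels do not describe separate cultures, but the study reports 3 independent experiments.

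Of 20802 targets, 20224 were named, and 12 symbols belong to more than 1 target. Genes with more than 100 counts in all were kept (10632) and 419 noncoding genes left out. Counts were fitted with edgeR 4.0.16 (TMM, quasi-likelihood test, Benjamini-Hochberg over all 10213 genes) under R 4.3.3, with 6 groups in one model, and the scripts were tested on simulated data. The main fit held no term for the replicate number. DESeq2 1.42.0 (1.18.1 in the submitters' processing notes) was an alternative, beside other scaling, filters, references, a replicate block and leaving out each library. Replicate numbers pair the libraries, since the labels give them as batches, each holding 1 library per siRNA; same-numbered deviations correlated by 0.145 on average over 45 pairs (lowest -0.148), and 17 of 18 libraries correlated best with their own number. Replicates of a group differed by more than sampling noise in all 18 pairs (lowest chi-square per degree of freedom 5.4). Gene positions are from GENCODE on GRCh37 and promoters from RefSeq on GRCh38.p14. The 10 genes, the pathway lists and the tests were chosen with earlier results of these data known. Named genes are the members, list genes called with all 4 siRNAs, the 4 of smallest p per list, 14 pathway genes listed by name, and the 3 most correlated with HSPA5 and ERN1, of which 1 is not reported here.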

Additional observations from a re-analysis of the deposited data

Results flagged for a closer look

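The siRNAs to TSG101 gave different values for 2 of the 10 genes in the direct edgeR comparison of siTsg101#1 with siTsg101#2. DNAJC3 was 0.64 higher on the log2 scale with siTsg101#1 (adjusted p = 0.0421, higher in 3 of 3 libraries than in any of the other group). HSP90B1 was 0.55 higher (adjusted p = 0.0356, likewise without overlap), which is under 1.5-fold. All libraries of siTsg101#1 lay above all of siTsg101#2 in 13.9% of tested genes. No difference of this kind passed the test between siVps28#1 and siVps28#2.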

How the results depend on the processing

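Over 28 alternatives, 18 of them leaving out 1 library, 2375 of 2440 recomputed values of the members stayed called in the same direction or uncalled, 64 uncalled values changing sign; 47 lost a call, 16 gained one and 2 reversed. The reversals were called values that changed sign and lost their call. Both were of DNAJC3 with siCtrl#2 as the reference, at -0.133 with siVps28#2 (adjusted p = 0.745) and -0.146 in the mean of the 4 siRNAs (adjusted p = 0.570). With that reference DNAJB9 was the 1 member called higher with each of the 4 siRNAs, HSPA5 was called lower with siTsg101#2, and the median of the 10 over the mean of the 4 siRNAs was 0.047; with the mean of both nontargeting siRNAs 1 was called with siTsg101#1. With only the groups compared in the fit, 0 members were called between the nontargeting siRNAs and 2 between siTsg101#1 and siTsg101#2, where no low-count filter and the adjusted p alone also gave 2. The cause was not tested. Leaving out 1 library gave 2 to 4 called members with siTsg101#1 (4 without replicate 3 of siCtrl#1), 1 to 3 with siTsg101#2 (3 without replicate 3 of siCtrl#1), 0 to 2 with siVps28#1 (0 without replicate 1 of siCtrl#1), 1 to 3 with siVps28#2, 0 to 1 with siCtrl#2 and 0 to 2 between the siTsg101 siRNAs, and a median from 0.217 without replicate 1 to 0.469 without replicate 3 of siCtrl#1. With the replicate block the mean of the 4 siRNAs again gave 3 called members and a median of 0.300, and the block changed no call of a member. Depth limits ERN1, SDF2L1 and DNAJB9 most, and groups of 3 leave changes near 1.5-fold undecided.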

Other observations

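Of the 45 pairs of members, XBP1 and HERPUD1 had the highest Pearson's r of log2 CPM within groups, 0.871 over the 18 libraries after subtracting each group's mean and 0.524 before; the pair is given because it was the highest. With siCtrl#1, for example, the libraries with 91.3, 133 and 178 CPM of XBP1 had 36.3, 66.1 and 98.5 CPM of HERPUD1. The order was not the same with siCtrl#2, where 137, 155 and 131 CPM of XBP1 stood beside 104, 76.0 and 75.2 CPM of HERPUD1. The lowest values within groups were those of XBP1 and SDF2L1 (-0.728), ERN1 and DNAJC3 (-0.651) and HERPUD1 and SDF2L1 (-0.648). ERN1 and DNAJB9 had r = 0.599 over all libraries and 0.019 within groups. HSP90B1 and DNAJC3 had 0.747 and 0.627. These are descriptions of libraries that share batches and differ in depth.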
